A study of Mus musculus with 2 samples.

Results

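Potassium and voltage-gated calcium channels set the excitability of muscle, nerve and epithelium, and the genes of their subunits were examined here in the developing mouse ureter. They were taken as the mouse genes whose symbols start with Kcn or Cacn, found by matching the accession of each array probe to a RefSeq gene table. This gave 124 genes (98 Kcn and 26 Cacn genes) covered by 174 of the 39429 probes on the array. Of these, 79 genes gave signals well above background in both pairs of at least 1 genotype and entered the comparison, among 20629 genes measured in all. The other 45 were not compared.

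The ureters came from NMRI embryos at E14.5. In the labelled knockout both alleles of the T-box repressors Tbx2 (fl/fl) and Tbx3 (fl/fl) were floxed and 1 Tbx18 allele carried Cre (cre/+). Tbx18 drives this Cre in progenitors of the ureteric mesenchyme. The control had no Cre (Tbx18 +/+) and at least 1 floxed allele each of Tbx2 (fl/?) and Tbx3 (fl/?), so that the Cre allele at Tbx18 was present in the labelled knockout alone and 1 allele of each T-box gene in the control is left unspecified. Each of 2 dual-colour arrays held 1 labelled knockout and 1 control RNA of the same sex. The female pair had the labelled knockout in AlexaFluor647 and the male pair had it in AlexaFluor555, so a sex effect and a dye effect cannot be told apart. Values below are log2 ratios of labelled knockout over control, and errors are SDs over n = 2 pairs. The labels do not say whether an RNA stands for 1 embryo or several. The p-values rest only on the spread between these samples, drawn mostly from all genes rather than from the gene tested.

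Smooth muscle cells contract when voltage-gated calcium channels open. The pore is an alpha1 subunit, and beta and alpha2delta subunits bring it to the membrane. Potassium channels oppose this by pulling the membrane towards rest: large-conductance (BK) and small-conductance (SK) channels open when calcium rises, ATP-sensitive (KATP) channels sense metabolism, voltage-gated channels shape repolarization, and K2P channels, whose subunits each carry a pair of pore domains, leak at rest. In the ureter these currents act on pacemaker activity and on the peristaltic wave.

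Signals well above background made up 70.8% and 71.6% of green spots and 66.9% and 64.3% of red spots (female pair, male pair), and 0 spots were saturated. The lowest share, 64.3%, was that of the male control RNA, and the highest, 71.6%, that of the male labelled knockout RNA. On both arrays the green channel had the higher share. It held the control RNA in the female pair and the labelled knockout RNA in the male pair. Of the channel genes, 7 entered through the labelled knockout with control signal on 1 array and 2 with it on 0 arrays. Through the control, 1 gene entered with labelled knockout signal on 1 array. Tbx3 was lower in the labelled knockout (-1.09 ± 0.10, limma adjusted p = 0.000862), whereas the Tbx2 probe was higher (0.86 ± 0.12, adjusted p = 0.00236), against its label, in both pairs. Probe positions were not used here, so it is unknown whether these probes lie in the deleted parts. Directions therefore refer to the RNA labelled knockout. Smooth muscle contractile genes were far lower: 9 of 11 measured markers fell, with a median of -2.53, and their summed intensity was 341751 and 398779 in the control RNAs against 113557 and 108589 in the labelled knockout. In whole ureters, fewer cells of a type and less RNA per cell cannot be told apart, for these genes or for the channels below.

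Potassium channel subunits changed in both directions, and calcium channel subunits did not pass the test. Of the 79 measured genes, 9 fell and 5 rose (limma with Benjamini-Hochberg adjustment over all genes, threshold 0.05), which is 17.7% of them beside 3.68% of all genes tested. All 14 were Kcn genes. The 9 falls compare with 1.81% of all genes called lower, and the 5 rises with 1.87% called higher. With median centring of each array in place of loess, 3 fell and 0 rose. The median over the 79 genes was 0.0072, beside -0.0021 over all genes tested. Where genotypes are said below not to overlap, this describes 2 pairs and is not a test. The share of all genes without overlap was not counted. For genes past the threshold, the lack of overlap largely follows from choosing them by the test on the same values.

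**Figure D1:**
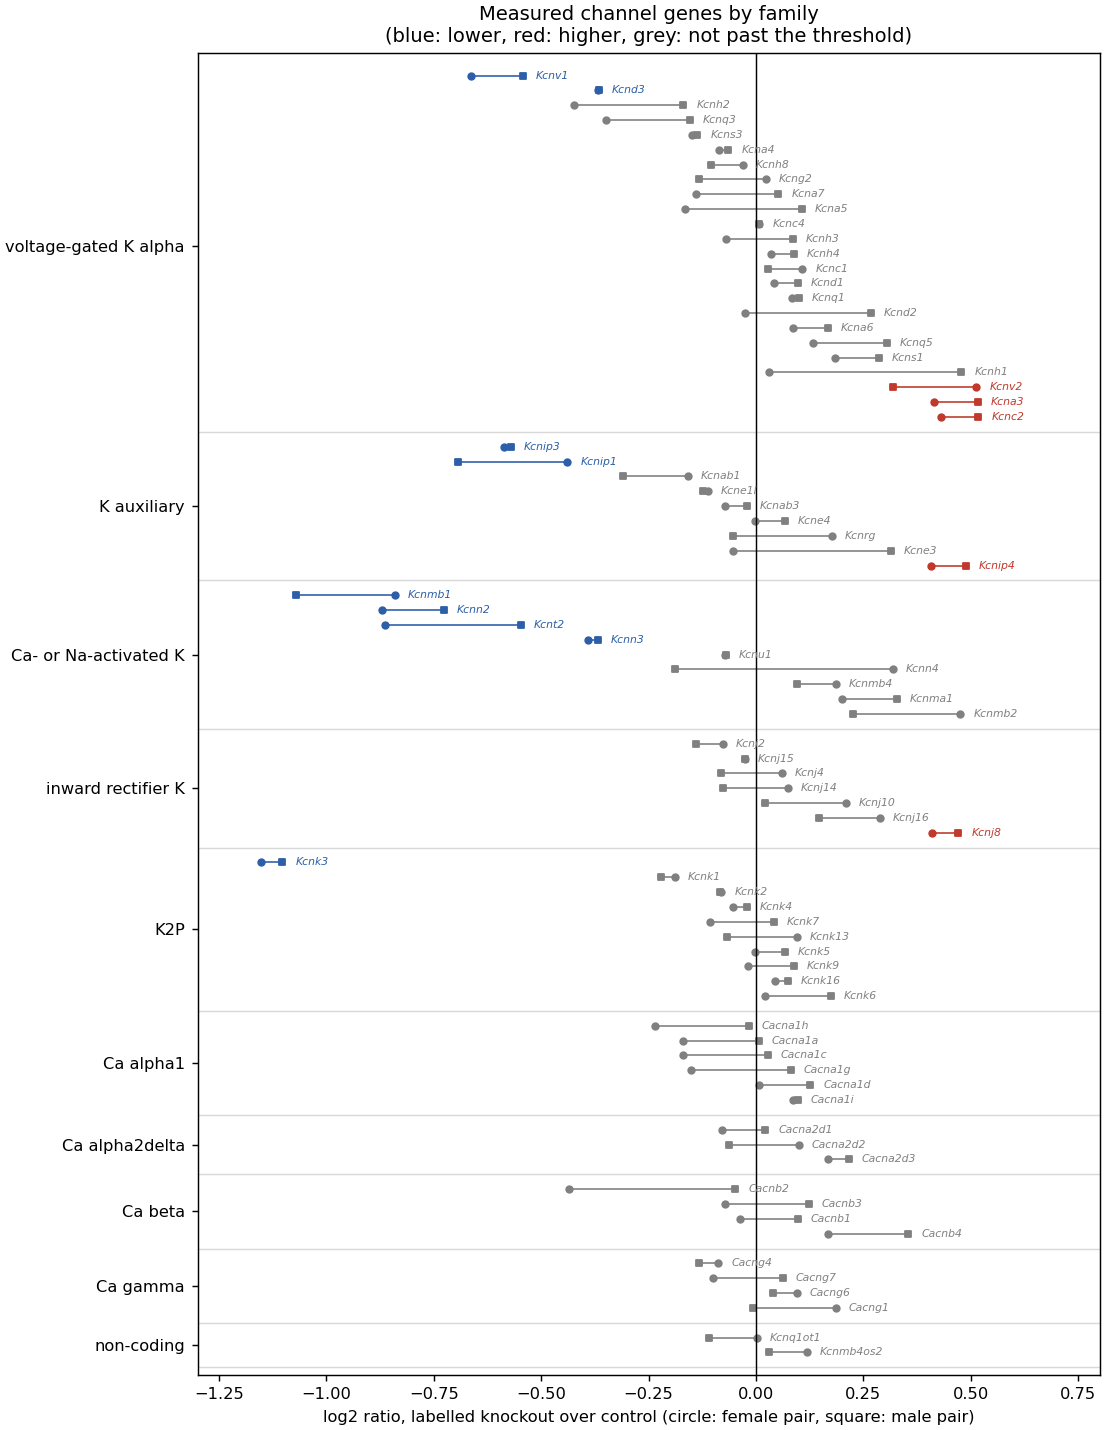
Log2 ratio of labelled knockout over control (horizontal axis) for the measured channel genes reported here, 1 line per gene, sorted within 10 families. The circle is the female pair, the square the male pair, and blue and red mark the 9 genes that fell and the 5 that rose.

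Calcium- and sodium-activated potassium channels held the most falls of any family: 4 of 9 measured genes fell and 0 rose. In the BK channel the subunits differed in sign. Kcnmb1 encodes the beta subunit that raises the calcium sensitivity of the BK channel in smooth muscle. Its log2 intensity was 8.87 and 9.04 in the female and male control RNAs, and 8.03 and 7.96 in the labelled knockout RNAs. Both labelled knockout values lay below both controls. The ratio was -0.96 ± 0.16 (95% interval -1.15 to -0.76, adjusted p = 0.00219), a 1.94-fold lower signal.

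The pore of the same channel behaved otherwise. Kcnma1, which encodes the BK alpha subunit, had log2 intensities of 10.65 and 10.63 in the control and 10.85 and 10.95 in the labelled knockout. In both pairs the labelled knockout value was the higher one, at 0.26 ± 0.090 (95% interval 0.10 to 0.43), but this did not pass (adjusted p = 0.129). All 4 probes for Kcnma1 pointed upwards, from 0.23 to 0.44, and 1 of them passed when each probe was tested by itself. Kcnmb4, a beta subunit best known from neurons and counted below among the smooth muscle subunits, was at 0.14 ± 0.064 (adjusted p = 0.454). Kcnmb2, a beta subunit that makes BK channels inactivate, was not well above background in either control RNA. Over both pairs its labelled knockout signal was at least 1.14-fold higher, but in the male pair it was 7.04, under the control's detection floor of 7.06. The fitted ratio of 0.35 did not pass (adjusted p = 0.0900), and it was 1.10 with the scanner software's processed signals and 0 with the deposited values. The difference between Kcnmb1 and Kcnma1 themselves was not tested.

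The start regions of Kcnmb1 and Kcnma1 are printed because these 2 subunits of a single channel had ratios of opposite sign. Each sequence is the 250 bases before the RefSeq start, 5′ to 3′ on the gene's own strand, from RefSeq's GRCm38.p6 windows, with CpG dinucleotides in capitals. The Kcnmb1 window is chr11:33962763-33963012 on the plus strand, and the Kcnma1 window is chr14:24004206-24004455 on the minus strand.
Kcnmb1: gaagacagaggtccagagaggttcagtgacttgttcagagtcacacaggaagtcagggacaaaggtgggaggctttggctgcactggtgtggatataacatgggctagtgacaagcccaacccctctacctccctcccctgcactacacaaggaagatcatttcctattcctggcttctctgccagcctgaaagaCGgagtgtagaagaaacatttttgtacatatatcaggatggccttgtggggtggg
Kcnma1: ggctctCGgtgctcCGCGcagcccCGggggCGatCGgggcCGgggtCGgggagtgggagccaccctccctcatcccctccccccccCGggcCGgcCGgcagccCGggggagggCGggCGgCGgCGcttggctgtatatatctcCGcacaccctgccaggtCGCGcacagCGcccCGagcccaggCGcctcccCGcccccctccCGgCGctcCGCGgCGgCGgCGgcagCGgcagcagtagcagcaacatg

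The Kcnmb1 window held 1 CpG at 50.8% GC and the Kcnma1 window 31 at 79.2% GC. Over all 27025 genes in the table the median was 6, and 28.8% of genes had at most 2. Among the other channel genes that fell, Kcnd3 had 18, Kcnn3 and Kcnt2 10 each, and the alternative windows of Kcnip1 and Kcnip3 ranged from 3 to 12 and from 2 to 23. The T-box core GTGTGA was searched on both strands, and its reverse complement TCACAC lies at position -210 in the Kcnmb1 window. It was the only one of 6 falling genes with a window that held it, beside 13.9% of all genes and 17.4% of the 92 channel genes with a window. The longer form GGTGTGA, which contains the core, was in 3.84% of all genes and 7.61% of these channel genes, and the CArG box, the element bound by serum response factor, in 1.62% of all genes and 0 of the 92. Neither was found in the windows of the 6 falling or 4 rising genes that the table holds. These matches describe letters, not binding sites.

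SK channels, which open on small rises of calcium and act on pacemaker rhythm, were lower too. Kcnn2 had log2 intensities of 9.79 and 9.65 in the control and 8.92 and 8.93 in the labelled knockout. The genotypes did not overlap, and the ratio was -0.80 ± 0.10 (adjusted p = 0.00284). For Kcnn3 the controls were at 11.07 in both pairs and the labelled knockout at 10.68 and 10.71, a ratio of -0.38 ± 0.016 (adjusted p = 0.0332). A dimmer Kcnn3 probe gave -0.40 (female pair) and 0.046 (male pair), and the call was lost when probes were averaged.

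Kcnt2, a sodium-activated channel placed among the neuronal subunits, went from 10.30 and 10.13 in the controls to 9.43 and 9.58. Its ratio was -0.71 ± 0.22 (adjusted p = 0.0118), and a dimmer probe also passed by itself at -0.40. Kcnu1, a pH-sensitive channel of sperm, was at -0.072 and did not pass. Kcnn4, the intermediate-conductance channel of epithelia and blood cells, had ratios of 0.32 (female pair) and -0.19 (male pair) and did not pass either.

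**Figure D2:**
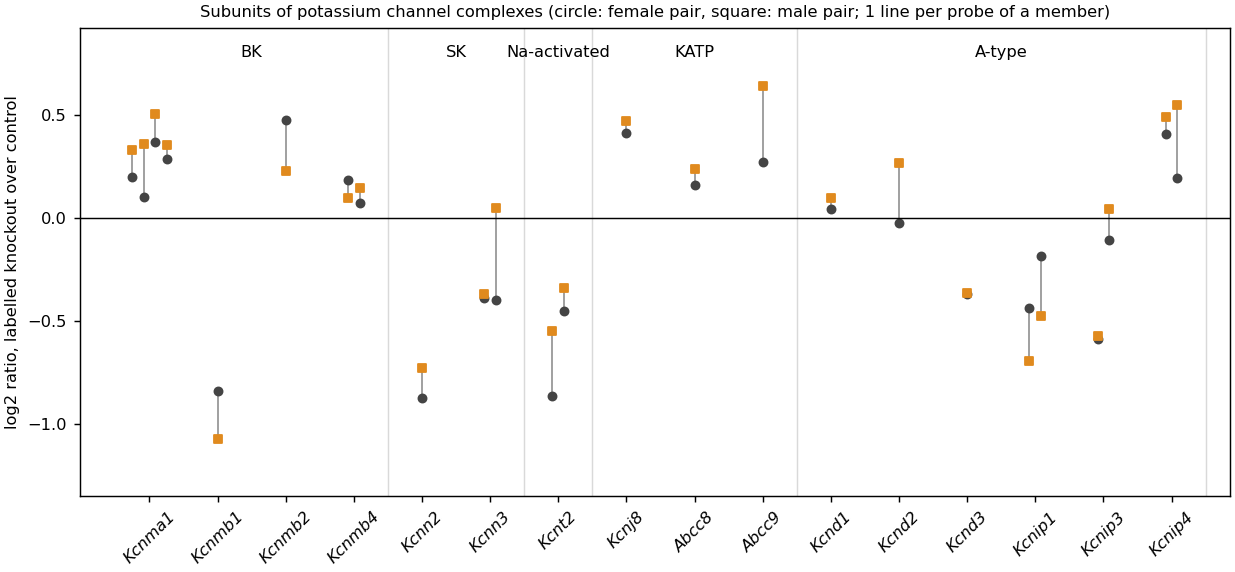
Log2 ratio of labelled knockout over control (vertical axis) for subunits that assemble into the same potassium channels, 1 line per kept probe of a member and the brightest probe for Abcc8 and Abcc9. Kcnmb1 lies below -0.8 in both pairs, while all 4 Kcnma1 probes lie above 0.

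Kcnk3, a K2P channel that carries an acid-sensitive leak current in vascular smooth muscle, had the largest fall of the 79 genes. It was at log2 intensities of 10.11 and 10.15 in the control RNAs and 8.96 and 9.05 in the labelled knockout RNAs. The genotypes were separated by far more than the difference between pairs, at -1.13 ± 0.035 (95% interval -1.29 to -0.97, adjusted p = 0.000580), a 2.18-fold lower signal. Among the 10 K2P genes measured it was the only one past the threshold. Kcnk2, a stretch-sensitive K2P channel of smooth muscle, was at -0.082 ± 0.0021, with a 95% interval of -0.24 to 0.075. Kcnk1, a weak leak channel of epithelia, was at -0.20 ± 0.024 (adjusted p = 0.207), and the other 7 K2P genes lay between -0.038 and 0.097.

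Among inward rectifiers, 1 of 7 measured genes rose and 0 fell. Kcnj8 encodes Kir6.1, the pore of the KATP channel of smooth muscle and pericytes. Controls were at 9.19 and 9.24 and labelled knockout RNAs at 9.60 and 9.71, so that both labelled knockout values lay above both controls. The ratio was 0.44 ± 0.044 (adjusted p = 0.0201). Abcc9, the sulphonylurea receptor that pairs with Kir6.1, had ratios of 0.27 and 0.64 and did not pass (0.46 ± 0.26, adjusted p = 0.0698). Abcc8, the receptor of pancreas and neurons, was at 0.20 and did not pass, and its usual partner Kcnj11 was not well above background in any RNA. Pericyte markers were examined beside Kcnj8: 0 of 6 passed with limma (1 at an unadjusted p under 0.05), with a median of 0.14, Rgs5 at 0.34 ± 0.21, and summed intensities of 52664 and 47028 in controls against 56725 and 52465. Their part in the Kcnj8 value was not tested.

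Kcnj2, the strong rectifier that holds the resting potential, was at -0.11 ± 0.045 (adjusted p = 0.601). Kcnj16 and Kcnj10, which form epithelial basolateral channels, were at 0.22 ± 0.10 and 0.12 ± 0.13 and did not pass. Kcnj15, also epithelial, was at -0.026. The G-protein-gated rectifiers of neurons and heart, Kcnj3, Kcnj5, Kcnj6 and Kcnj9, were not well above background in any RNA.

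**Figure D3:**
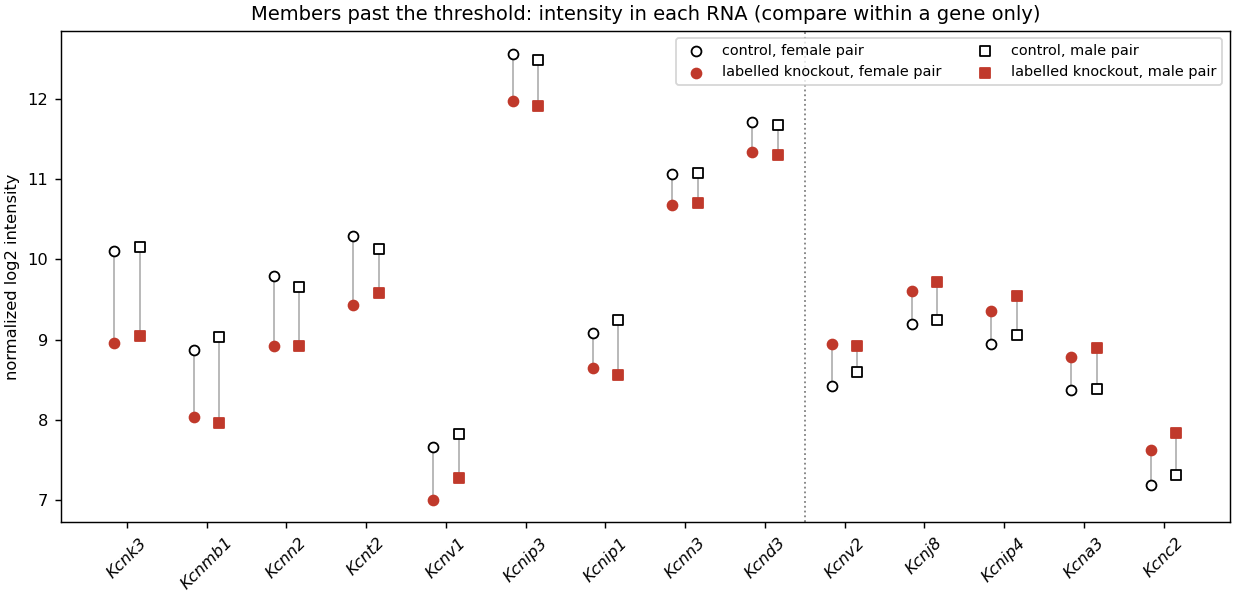
Normalized log2 intensity (vertical axis) in each of the 4 RNAs for the 14 channel genes past the threshold, with falls left of the dotted line. Open symbols are controls and filled symbols the labelled knockout. The gap between them in both pairs follows from choosing these genes by the test on the same values. Heights are comparable within a gene only.

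Voltage-gated alpha subunits, the largest family, included 2 falls and 3 rises among 25 measured genes. Kcnd3 encodes an A-type pore, a fast channel that inactivates and delays firing. It had log2 intensities of 11.71 and 11.67 in the controls and 11.34 and 11.31 in the labelled knockout, a separation of -0.37 ± 0.0022 (adjusted p = 0.0371). Kcnv1, a silent subunit that modifies neuronal channels, fell from 7.66 and 7.82 to 7.00 and 7.28. That was -0.60 ± 0.086 (adjusted p = 0.00810), with the labelled knockout RNA well above background in 1 of 2 pairs. Kcnv1 was the only one of the 14 called genes that was not well above background in all 4 RNAs.

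The rises were in Kcnc2, Kcna3 and Kcnv2. Kcnc2 encodes a channel of fast-spiking neurons. It was at 7.19 and 7.31 in the controls and 7.62 and 7.83 in the labelled knockout, a ratio of 0.47 ± 0.061 (adjusted p = 0.0165). Kcna3, best known from lymphocytes and some neurons, went from 8.37 and 8.38 to 8.79 and 8.90, at 0.47 ± 0.073 (adjusted p = 0.0187). For Kcnv2, a silent subunit of photoreceptors, the controls were at 8.43 and 8.60 and the labelled knockout at 8.94 and 8.92, at 0.42 ± 0.14 (adjusted p = 0.0407). In each of the 3 genes, chosen by the test on these same values, the genotypes did not overlap.

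The other voltage-gated subunits known from smooth muscle did not pass. Kcna5, a delayed rectifier, was at -0.029 ± 0.19 with opposite signs in the pairs. Kcnq1 was at 0.092 ± 0.010 and Kcnq5 at 0.22 ± 0.12, both pores of slow currents. Kcnh2, the ERG channel of the heart, on no list here, was at -0.30 ± 0.18 (adjusted p = 0.148). Kcnh1 and Kcns1, known from neurons, were at 0.25 ± 0.32 and 0.24 ± 0.072. The remaining members between these values lay from -0.25 to 0.13.

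Auxiliary subunits of potassium channels included 2 falls and 1 rise among 9 measured genes, all 3 of them KChIPs. KChIPs are calcium-binding proteins that carry A-type channels such as Kcnd3 to the membrane. Kcnip3, which encodes a KChIP also described as a DNA-binding repressor, was at 12.57 and 12.49 in the controls and 11.98 and 11.92 in the labelled knockout. Its ratio was -0.58 ± 0.012 (adjusted p = 0.00728). A dimmer probe for Kcnip3 gave -0.031, the widest gap between kept probes of any of the 26 members with several, and the mean of both probes, -0.30, did not pass (adjusted p = 0.0688).

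Kcnip1 went from 9.08 and 9.25 in the controls to 8.64 and 8.56, at -0.57 ± 0.18 (adjusted p = 0.0184), and its dimmer probe was at -0.33 and did not pass by itself. Kcnip4 moved the other way, from 8.95 and 9.06 to 9.36 and 9.54, at 0.45 ± 0.057 (adjusted p = 0.0199). Its dimmer probe was at 0.37 and did not pass by itself either. No genotypes overlapped for the brighter probes of these 3 genes. The A-type pore Kcnd1 was at 0.069 ± 0.039 and did not pass, beside the fall of Kcnd3. Kcnd2, also an A-type pore, had ratios of -0.025 (female pair) and 0.27 (male pair) and did not pass. Other auxiliary subunits were Kcnab1, a beta subunit of Shaker-type channels, at -0.23 ± 0.11 (adjusted p = 0.187), Kcne4 at 0.032 ± 0.050 and Kcne3 at 0.13 ± 0.26.

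Calcium channel subunits showed no call: with limma, 0 of 17 measured Cacn genes passed, and 2 (Cacna2d3 and Cacnb4) had an unadjusted p under 0.05. The same count was 0 under 11 of 12 other settings. The exception was the test of each probe by itself, in which a dimmer probe of Cacna2d1 passed at 0.38. Cacna1c, the L-type pore that admits calcium for smooth muscle contraction, had log2 intensities of 11.72 and 11.59 in the controls and 11.55 and 11.62 in the labelled knockout. The genotypes overlapped, with ratios of -0.17 (female pair) and 0.028 (male pair). The mean was -0.071 ± 0.14, and its 95% interval ran from -0.26 to 0.11 (adjusted p = 0.855). A second, dimmer probe gave 0.0047.

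The T-type pores, which open near rest and feed pacemaking, were also close to 0. Cacna1g was at -0.035 ± 0.16 (95% interval -0.23 to 0.16) and Cacna1h at -0.13 ± 0.15 (95% interval -0.32 to 0.065). Of the beta subunits, Cacnb2 had ratios of -0.44 and -0.048 (mean -0.24, adjusted p = 0.362), and Cacnb3 at 0.025 ± 0.14. The alpha2delta subunit Cacna2d1 was at -0.028 ± 0.071 by its bright probe. The lowest bound of the intervals of Cacna1c, Cacna1g, Cacna1h, Cacnb3 and Cacna2d1 was that of Cacna1h, -0.32. The interval of Cacnb2 reached lower, to -0.49. A fall of the size of Kcnmb1 lies outside all of these intervals.

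**Figure D4:**
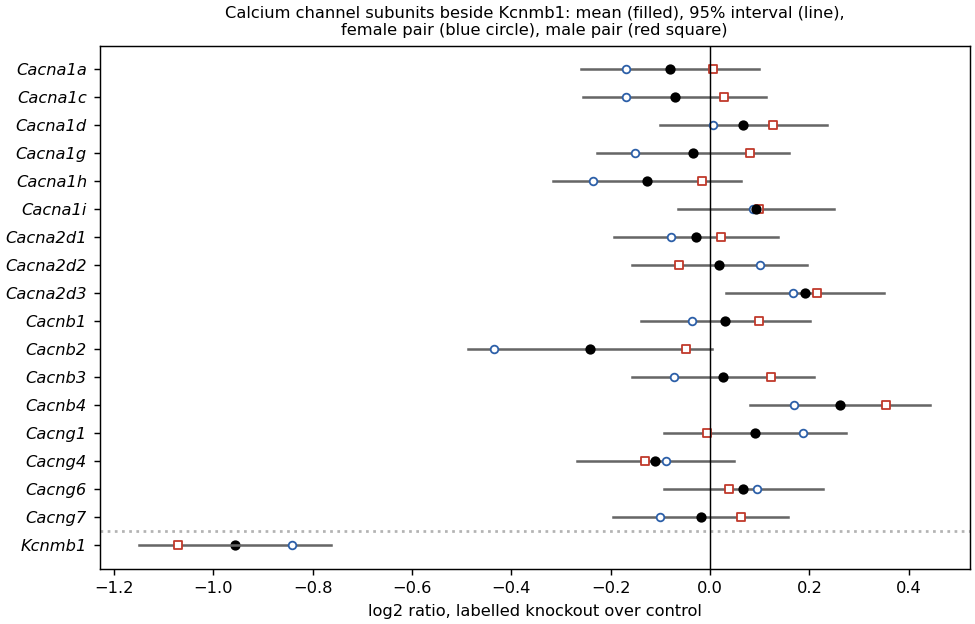
Log2 ratios of the 17 measured calcium channel subunits, with Kcnmb1 below the dotted line for scale. Filled points are means over 2 pairs, lines are 95% intervals from the moderated limma fit, and open symbols are the single pairs. The lower bound of each Cacn interval lies above the upper bound of Kcnmb1 at -0.76.

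Smooth muscle and neuronal subunits were set side by side from lists of known expression, which were chosen with earlier results of these data known. Beside the counts below, 1.81% of all genes tested were called lower and 1.87% higher. Of 25 smooth muscle subunits, 22 were measured, of which 5 fell (Kcnk3, Kcnmb1, Kcnn2, Kcnn3 and Kcnd3), 1 rose (Kcnj8) and 16 did not pass. The median was -0.076 and the range -1.13 to 0.44. Of 40 neuronal subunits, 21 were measured, of which 3 fell (Kcnt2, Kcnv1 and Kcnip1), 2 rose (Kcnip4 and Kcnc2) and 16 did not pass, with a median of 0.019. The 3 other calls, Kcnip3, Kcnv2 and Kcna3, were on no list. Of the neuronal calcium channel genes, Cacnb4 was at 0.26 ± 0.13 (adjusted p = 0.159), with the control RNA well above background in 1 of 2 pairs, and Cacna1b and Cacna1e were not well above background in any RNA.

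Markers of neurons and glia moved with the neuronal subunits that rose. Of 20 such markers, 6 rose and 0 fell, with a median of 0.28, Fabp7 at 0.71 and Prph at 0.69. Their summed intensity was 73937 and 72802 in the controls and 78247 and 74793 in the labelled knockout, and their part in the values of Kcnc2, Kcnip4 and Kcna3 was not tested. Of 10 endothelial markers, 0 passed with limma (3 at an unadjusted p under 0.05), with a median of 0.14 and summed intensities of 123029 and 123342 against 131055 and 151841.

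Subunits typical of skeletal muscle and of transporting epithelium did not pass. Cacna1s, the skeletal muscle L-type pore, was not well above background in any RNA. Cacng1, its gamma subunit, was not well above background in either control RNA and had ratios of 0.19 (female pair) and -0.0068 (male pair), which did not pass (adjusted p = 0.779). Cacng6, a related gamma subunit, was at 0.067 ± 0.040 and did not pass. Of 9 measured skeletal muscle markers, 1 fell with limma (4 at an unadjusted p under 0.05), with a median of -0.15. The fall was that of Acta1 at -2.06 ± 0.69, an actin that smooth muscle precursors can also express. Summed over these 9 markers, intensity was 5913 and 6736 in the controls and 4520 and 4070 in the labelled knockout. The part of skeletal muscle in the channel values was not tested. All 7 measured epithelial subunits were between -0.20 and 0.22, and 0 passed with limma (2 at an unadjusted p under 0.05). Urothelial markers had a median of -0.055 with 0 of 12 past the threshold (4 at an unadjusted p under 0.05). Of 10 kidney epithelium markers 5 were measured and 0 passed with limma (1 at an unadjusted p under 0.05), with a median of 0.23. Their summed intensity was 7956 and 7185 in the controls and 8497 and 10336 in the labelled knockout. Six2 had ratios of -0.34 (female pair) and 1.11 (male pair), and Wt1 of -0.032 and 0.79. The part of kidney tissue in the channel values was not tested.

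Other genes of excitation and calcium handling were taken from a list of 41 genes. Of the 36 measured, 4 fell, 0 rose and 32 did not pass, with a median of 0.030. Trpv2, a calcium-permeable channel that responds to stretch, was at -1.42 ± 0.099 (adjusted p = 0.000329). Gem, a small GTPase that inhibits calcium channels by binding their beta subunits, was at -1.06 ± 0.0045 (adjusted p = 0.000686). The ryanodine receptor Ryr2, which releases stored calcium, was at -0.66 ± 0.35 (adjusted p = 0.0373), with the labelled knockout RNA well above background in 1 of 2 pairs. Atp2b4, a plasma membrane calcium pump, was at -0.37 ± 0.078 (adjusted p = 0.0442).

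The calls differed in how firmly they stood. Under 12 other settings that give a test, Kcnk3, Kcnmb1 and Kcnn2 passed each time, and the other 11 lost the call under at least 1. No gene of the 14 changed direction. Kcna3, Kcnc2 and Kcnv1 lost it with median centring alone, where adjusted p was 0.137, 0.122 and 0.0591, while the lowest over the settings were 0.00658, 0.00557 and 0.00177. The values of Kcnv1 and Kcnc2 were larger in the scanner software's processed signals (-1.16 and 0.85) and in the deposited values (-1.11 and 0.90), which differ from the main setting in several steps at once. Without background subtraction alone they were -0.61 and 0.47. Kcnv1 did not enter the stricter filter, which asks for signal in both genotypes.

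**Figure D5:**
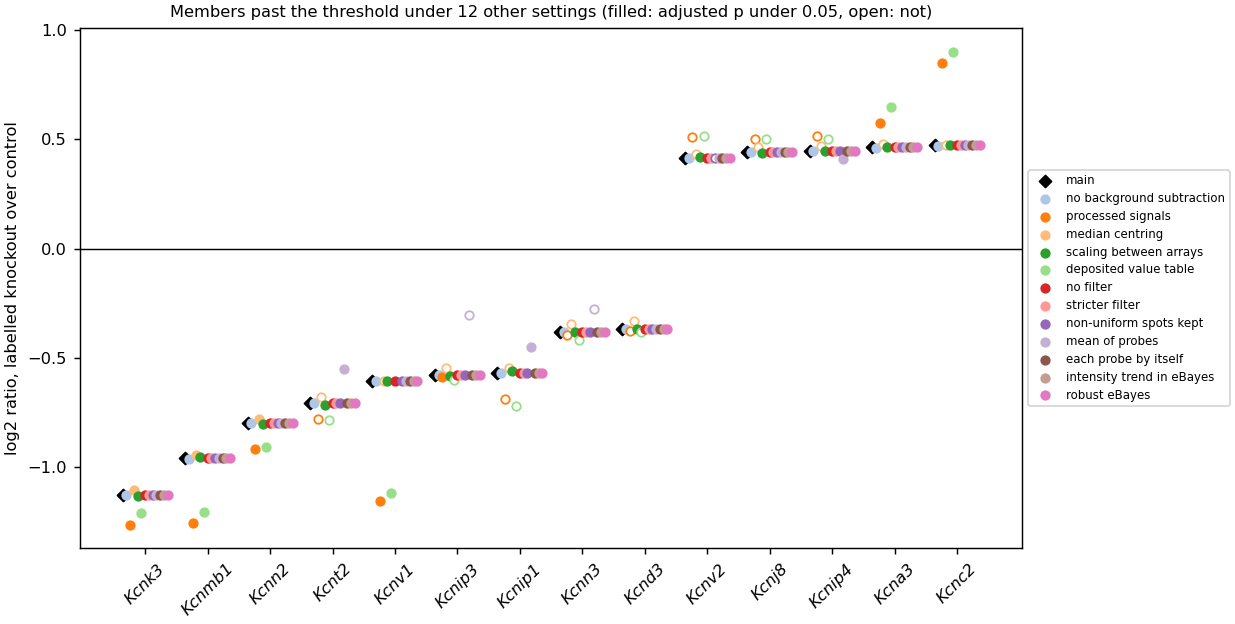
Log2 ratio (vertical axis) of the 14 called genes under the main setting (black diamond) and 12 other settings (coloured circles), filled where adjusted p is under 0.05. Kcnk3, Kcnmb1 and Kcnn2 are filled throughout.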

How the data were processed

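RNA of the 2 pairs was measured on dual-colour Agilent arrays. The submitters' processing notes name Agilent Feature Extraction 10.7.3.1. The deposited scanner files hold spot and local background intensity for each channel, not normalized, and processed signals, corrected for background and dye, per the file headers. A deposited table gives signed folds, with centring unknown. Its log2 values correlated with the processed signals at 0.982 and 0.985 over 24806 probes, which set its direction.

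Mean intensities were corrected with normexp (offset 50), normalized by loess within each array, cleared of 186 and 223 non-uniform spots, averaged over 4 spots per probe and turned to labelled knockout over control. Probes needed more than 0.5 of their spots well above background in both arrays of 1 genotype, which left 25934. The brightest probe stood for a gene. Intensities per RNA were put on 1 scale over both arrays (Aquantile). A fold against a genotype below background uses, per array, the higher of the probe's own signal and the lowest signal of any probe well above background.

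Log2 ratios were tested with limma 3.58.1 in R 4.3.3 (lmFit, eBayes, Benjamini-Hochberg over 20629 genes). The fit had 1 residual and 5.24 prior degrees of freedom. Each p-value thus draws mostly on the spread of all genes, and the number of arrays limits precision. The procedure was run on simulated intensities with a spread set like the one fitted here, which does not test the calls themselves. Accessions named 28328 probes through a RefSeq table of GRCm38.p6. Of 124 members, 92 had a promoter window.

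Values are given for members past the threshold, for smooth muscle subunits, for the 10 largest falls and rises with 1 sign in both pairs, and for up to 4 members of each other list with the largest change. Some others complete a family. One member that the rule covers is counted but not reported here. Members and lists were chosen with earlier results of these data known. Alternatives covered background, signal, normalization, filters, outlier spots, probe joining, variance models and single pairs.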

Additional observations from a re-analysis of the deposited data

Results flagged for a closer look

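Opposite signs in the 2 pairs were seen for 25 of the 79 measured channel genes. The same sign was seen for the other 54, beside 11506 of the 20629 genes tested in all. The 14 genes past the threshold are not among those with opposite signs, which largely follows from a test of the mean over both pairs. Each sex is represented by 1 pair, so whether the pairs differ was not tested, and the dyes are exchanged between them too. The log2 ratio of the male pair minus that of the female pair was positive for these genes: 0.37 for Kcne3, 0.29 for Kcnd2, 0.27 for Kcna5, 0.23 for Cacna1g, 0.20 for Cacna1c, 0.19 for Cacnb3, 0.19 for Kcna7 and 0.18 for Cacna1a. It was smaller for the others of that sign, at 0.16 for Cacng7, 0.16 for Kcnh3, 0.15 for Kcnk7, 0.13 for Cacnb1, 0.11 for Kcnk9, 0.10 for Cacna2d1, 0.070 for Kcne4 and 0.070 for Kcnk5. It was negative for the rest: -0.51 for Kcnn4, -0.23 for Kcnrg, -0.19 for Cacng1, -0.16 for Cacna2d2, -0.16 for Kcnk13, -0.15 for Kcng2, -0.15 for Kcnj14, -0.14 for Kcnj4 and -0.11 for Kcnq1ot1. The widest gap was that of Kcnn4, the channel of epithelia and blood cells, and next came Kcne3, an auxiliary subunit of epithelia.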

How the results depend on the processing

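Counts of calls moved by over 1.5 times under 3 settings, of which median centring changes the normalization alone. With the processed signals, 2 channel genes were higher and 5 lower, and 249 and 214 of all genes. With median centring the counts were 0 and 3, and 114 and 128 of all genes, and with the deposited values 2 and 4, and 142 and 143. These settings account for 26 of the 29 calls lost by single genes. The cause was not tested. Under the other 9 settings with a test, between 12 and 14 of the 14 called genes kept their call, and no named gene past the threshold changed sign. Without a filter on dim probes Kcnh5 was an added fall, and with each probe tested by itself Cacna2d1 and Kcnma1 were added rises. Without either replicate 1 array is left, which gives values and no test: Kcnmb1 ranged from -1.07 to -0.84 and Kcnk3 from -1.15 to -1.10. The test is itself on ratios within same-sex pairs. No paired analysis was possible beyond it, because the labels give 1 group of ratios. Signal over background limits the result to 79 of 124 genes, and 10 of the 45 others were well above background in some RNA.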

Other observations

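Members that lie next to each other in the genome were set side by side, using the RefSeq table for gene order only. Kcnmb1 lies within the interval of Kcnip1, and both fell, at -0.96 and -0.57. Kcnj8 and Abcc9, neighbours that encode the pore and the receptor of a KATP channel, were at 0.44 and 0.46, of which Kcnj8 alone passed. Kcnj16 and Kcnj2, also neighbours, were at 0.22 and -0.11, and neither passed. Kcna3 rose, at 0.47, while its neighbour Kcna2 was well above background in some arrays only and was not compared.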
